A study of Homo sapiens with 4 samples.

Results

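The MAGEA genes are a family of cancer-testis antigens on chromosome X, and 8 of them (MAGEA1, MAGEA2, MAGEA2B, MAGEA3, MAGEA4, MAGEA6, MAGEA10 and MAGEA12) were followed here in RNA-seq of cells labelled HepG2, an established human liver cancer line. Members were taken by their gene symbol, and 6 of the 8 had a row among the 44591 genes of the deposited tables. MAGEA3 and MAGEA12 were not analysed here. The family was chosen from these same counts because MAGEA2B was higher after siRNA against SALIS, so the values of MAGEA2B and of its copy MAGEA2 in that comparison are a description and carry no test. Cells of about 70% confluency received either the control siRNA siNC or an siRNA to the long noncoding RNA SALIS (LINC01186). They were kept for 6 h without serum and for a further 24 h in medium with 10% serum. There were 2 libraries per group, numbered 1 and 2 in both groups. The same siNC was used in both replicates while the siRNA against SALIS differed between them, and the labels do not say which oligo went into which library. The study calls the replicates biological repeats, while the labels do not describe how the cultures were kept apart. All p-values rest on at most 2 libraries per group. The spread behind them was estimated from each gene's libraries together with the trend over all genes. In the fit of treatment together with the replicate number, the spread came from that trend only.

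MAGEA proteins are made in the germ line of the testis and are silent in most other adult tissues, where methylation of CpG sites in their promoters keeps the genes off. Tumors of many types transcribe them again, and liver cancers are among these. All MAGE proteins share a MAGE homology domain, through which they bind RING-type ubiquitin ligases. The partner of several MAGEA proteins is TRIM28, a ligase and transcriptional corepressor, and MAGEA3 and MAGEA6 direct it to the kinase AMPK. MAGEA10 and MAGEA11 are more distant relatives, and MAGEA11 is best known as a coregulator of the androgen receptor.

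In hg19, as placed by the deposited annotation, MAGEA4 (X, 151081361 to 151093642, plus strand), MAGEA10 (151301782 to 151307050, minus), MAGEA2B (151883075 to 151887096, plus), MAGEA2 (151918387 to 151922408, minus), MAGEA6 (151934652 to 151938238, minus) and MAGEA1 (152481522 to 152486116, minus) follow each other along the chromosome. These places were not compared with another hg19 annotation. Whether the place given for MAGEA6 is that of MAGEA6 or of MAGEA3 was thus not checked, and its name follows the deposited annotation. All are annotated as protein coding. MAGEA2B and MAGEA2 are copies that face opposite ways. In the GENCODE v29 annotation, each of the 8 members carries its whole coding sequence in 1 exon. The coding sequences of MAGEA2 and MAGEA2B were the same in all 942 bases. MAGEA3 and MAGEA6 differed at 18 of 942 coding bases, an identity of 98.1%. The coding sequence of MAGEA2B had an identity of 91.7% with that of MAGEA6, 93.0% with MAGEA12, 82.1% with MAGEA1 and 72.4% with MAGEA10.

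The coding stretch in which MAGEA3 and MAGEA6 differ most densely is shown because reads have to cover such places to tell these copies apart. It runs from coding base 580 to 639, and capitals mark the 4 differing bases.
MAGEA3: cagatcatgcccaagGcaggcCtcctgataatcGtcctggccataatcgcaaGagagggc
MAGEA6: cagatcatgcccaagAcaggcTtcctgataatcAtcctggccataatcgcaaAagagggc
The longest stretch of coding sequence without any difference between these 2 genes was 308 bases, which is longer than a read of 150 bases.

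How far reads can separate the members was measured by asking whether each window of 150 bases of a member's longest coding transcript also occurs, letter for letter on either strand, in a transcript of another gene. For MAGEA2B all 1797 windows did, and the other gene was MAGEA2. For MAGEA2, 97.8% of windows were also in MAGEA2B. For MAGEA6, 27.9% of windows were also in MAGEA3. For MAGEA1 and MAGEA4 no window was found elsewhere. For MAGEA10, 12.3% were found in the readthrough gene MAGEA10-MAGEA5, which shares part of its transcript. Taken over all annotated transcripts of a gene, 77.9% of 3148 distinct windows of MAGEA2B and 88.0% of 2786 of MAGEA2 were in another gene. MAGEA12 was among these other genes, and 18 of its 1873 windows were in MAGEA2 or MAGEA2B. The windows of MAGEA2B found nowhere else thus came from its other transcripts. A count for MAGEA2B or MAGEA2 alone therefore depends on how the authors' counting treated reads with more than 1 place, which is not given in the sources used here. Their sum does not depend on how such reads were divided between the copies, although it does depend on whether they were counted at all.

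The stretch around the transcription start is shown for MAGEA2B and MAGEA6 because their levels lay far apart while these windows are close in sequence. Each window holds the 250 bases before and the 50 bases after a start in RefSeq (GRCh38.p14), and capitals mark the CG steps, the places that DNA methylation can occupy. Windows matched 6 of the 8 members, and MAGEA1 and MAGEA10 had none.
MAGEA2B (chrX:152714378-152714677, plus strand): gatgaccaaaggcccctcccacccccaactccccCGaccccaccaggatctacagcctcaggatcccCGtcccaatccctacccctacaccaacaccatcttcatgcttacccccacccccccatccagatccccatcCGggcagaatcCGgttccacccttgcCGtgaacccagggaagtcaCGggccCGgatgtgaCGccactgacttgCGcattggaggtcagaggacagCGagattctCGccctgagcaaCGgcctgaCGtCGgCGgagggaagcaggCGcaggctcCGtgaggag
MAGEA6 (chrX:152769640-152769939, minus strand): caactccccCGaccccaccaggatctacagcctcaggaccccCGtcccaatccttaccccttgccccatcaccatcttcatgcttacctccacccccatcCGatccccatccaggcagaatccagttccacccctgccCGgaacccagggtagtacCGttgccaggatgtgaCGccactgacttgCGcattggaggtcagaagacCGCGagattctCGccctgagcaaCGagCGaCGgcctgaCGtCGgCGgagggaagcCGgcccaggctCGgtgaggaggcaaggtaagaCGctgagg
The MAGEA2B window was identical in all 300 bases to that of a start of MAGEA2 (chrX:152753793-152754092, minus strand), and the MAGEA6 window was identical to that of MAGEA3. MAGEA2B and MAGEA6 agreed at 251 of 272 aligned bases (92.3%). The MAGEA2B window held 17 CG steps and the MAGEA6 window 19, against a median of 14 over 35116 windows of this length. The 5 windows of MAGEA4, which was close to 0 in all libraries, held 10 to 15 CG steps. The letters CCGGAT, the core of a site that ETS factors can bind, were searched on both strands. They occurred 3 times in the MAGEA2B window and 0 times in that of MAGEA6, while 7.12% of all windows held them. Each MAGEA2 window held them 3 times, each MAGEA12 window 1 time and the MAGEA4 windows 1 to 2 times. The other ETS core, CCGGAA, occurred 1 time in the MAGEA6 window and 0 times in that of MAGEA2B, and 17.2% of all windows held it. The E-box CACGTG, held by 7.26% of windows, and the GC box core CCCGCC, held by 45.0%, were in neither. These matches describe letters and were not related to binding.

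The libraries held 14968958 to 17297245 counts. SALIS itself had 15 and 14 counts under siNC and 12 and 14 under siSALIS, a log2 fold change of -0.12 with an SE of 0.53 (adjusted p = 1.00 by the quasi-likelihood test of edgeR, Benjamini-Hochberg adjusted), so the groups are given below as libraries labelled siNC and siSALIS. The summed reads gave a ratio of siSALIS to siNC of 0.920 with an exact counting interval of 0.520 to 1.62. At so few reads a lower level is not excluded, and the study reports the knockdown by qPCR. Defining products of liver cells and of HepG2 were close to 0. ALB had 0 counts in both libraries numbered 1 and 15 and 14 in those numbered 2, AFP had 2 to 16, and TTR had 0 except for 3 in siSALIS library 2. These values go against the label, and the cells are called here by their label only. Of the 8 germ cell markers 4 were at 0 in all libraries, and the summed level of the list was 0.867 to 1.73 CPM (read counts relative to library size, scaled by edgeR's TMM factors) in siNC and 1.07 to 1.19 in siSALIS libraries.

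TPM values, which divide counts by gene length and scale each library to the same total, gave the order of the members' levels. MAGEA1 was highest, with 94.1 and 77.6 TPM under siNC and 87.2 and 72.0 under siSALIS. MAGEA6 followed with 61.3 and 51.7 TPM in siNC and 49.9 and 47.5 in siSALIS libraries. Every library of MAGEA1 lay above every library of MAGEA6, and with means of 82.7 and 52.6 TPM the 2 genes ranked 1890 and 3055 among 30582 genes above 0. The remaining members were lower by orders of magnitude. MAGEA2B had 0.123 and 0 TPM in siNC and 1.03 and 1.38 in siSALIS libraries. MAGEA10 had 0.425 and 0.248 TPM in siNC and 0.418 and 0.170 in siSALIS libraries. MAGEA10 lay above MAGEA2B in both siNC libraries and below it in both siSALIS libraries, so over all libraries their ranges overlapped. This order rests on few reads, and the rise of MAGEA2B chose the family. MAGEA2 had 0.0570 and 0 TPM in siNC and 0.168 and 0 in siSALIS libraries, and MAGEA4 had 0 and 0.0696 in siNC and 0.0651 and 0 in siSALIS libraries. These last 2 genes overlapped as well, and MAGEA10 stood above MAGEA2 by no more than 0.170 against 0.168 TPM at the nearest libraries, which were 4 and 3 reads. In bulk RNA, fewer cells with a transcript and less transcript per cell cannot be told apart.

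**Figure D1:**
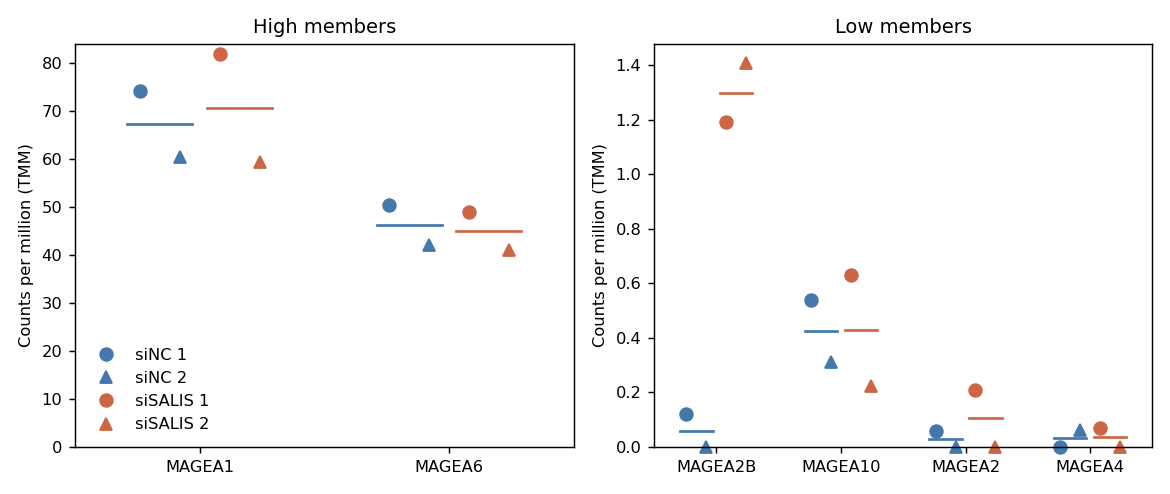
Level of each member in CPM (y axis, scaled by TMM factors) in the 4 libraries, with circles for libraries numbered 1, triangles for those numbered 2, and horizontal lines for the mean of each group (n = 2). MAGEA1 and MAGEA6 are high and lower in the libraries numbered 2 of both groups, while MAGEA2B reaches 1.19 and 1.41 CPM in the siSALIS libraries and 0.119 and 0 in the siNC libraries.

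MAGEA1 and MAGEA6 carried nearly all of the family's reads. MAGEA1 took 58.2% to 61.6% of the counts of the 6 members and MAGEA6 took 36.8% to 40.9%, together 98.4% to 99.6%. Of the counts of MAGEA1 and MAGEA6 together, MAGEA6 made up 40.5% in siNC library 1 (exact 95% binomial interval 38.4 to 42.6) and 41.1% in siNC library 2 (38.7 to 43.5). In siSALIS library 1 it made up 37.4% (35.2 to 39.7) and in siSALIS library 2 40.8% (38.5 to 43.1). The share was lowest in siSALIS library 1, and its interval overlapped those of the other libraries. Intervals of shares and counts cover counting error only. MAGEA2B made up 0.0953% of the family's counts in siNC library 1 and 0% in siNC library 2, where 0 of 1660 counts allows a share of up to 0.181% by the floor of 3 counts used here for a count of 0. It made up 0.894% (0.522 to 1.43) and 1.38% (0.893 to 2.03) in the siSALIS libraries.

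The comparison of the labelled groups asks which genes change when SALIS is targeted. The study's limits were a log2 fold change over 1 or under -1 together with an unadjusted p below 0.05, and past them 0.464% of the 23942 genes tested were higher and 0.292% lower in the siSALIS libraries. Of the 4 members with at least 5 counts, MAGEA2B was past the limits, which is why the family was chosen, and MAGEA1, MAGEA6 and MAGEA10 were within them. No gene of the 23942 had an adjusted p under 0.05 by edgeR's quasi-likelihood test, while 289 had an unadjusted p under 0.05 and DESeq2's Wald test gave 1 adjusted call. When edgeR blocked on the replicate number, 278 genes had an adjusted p under 0.05, in a fit that took the spread from the trend over all genes.

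MAGEA2B, which encodes the same protein as MAGEA2, had 2 and 0 counts under siNC and 17 and 25 under siSALIS. Both siSALIS libraries stood above both siNC libraries, the pattern for which the family was chosen. Summed over each group and divided by the effective library sizes, 42 counts against 2 gave a ratio of 21.5 with an exact counting interval of 5.60 to 184. This interval covers counting error only and, on counts that chose the family, is no test. The fitted log2 fold change was 4.26 (SE 0.91), a value that rests on 2 reads in the siNC libraries. A group order in which both siSALIS libraries lie above both siNC libraries was found for 13.6% of all genes tested, and the opposite order for 12.4%. Among the 4 tested members it was found for MAGEA2B alone and the opposite order for 0.

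MAGEA2, the copy of MAGEA2B, had 1 and 0 counts under siNC and 3 and 0 under siSALIS. It was at or under the floor of 3 counts in every library and was not tested. The 2 copies summed to 3 and 0 counts in the siNC libraries and to 20 and 25 in the siSALIS libraries, or 0.179 and 0 against 1.40 and 1.41 CPM. The ratio of the sums was 15.4 with an exact counting interval of 4.94 to 77.4, and the fitted log2 fold change of the sum was 3.84 (SE 0.89). As 42 of the 45 siSALIS reads of the sum were those of MAGEA2B, this too is a description. MAGEA2B made up 2 of 3 reads of the sum in siNC library 1, 17 of 20 (85.0%, exact interval 62.1 to 96.8) in siSALIS library 1 and 25 of 25 (100%, 86.3 to 100) in siSALIS library 2. The sum thus differed between the groups much as MAGEA2B alone did.

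**Figure D2:**
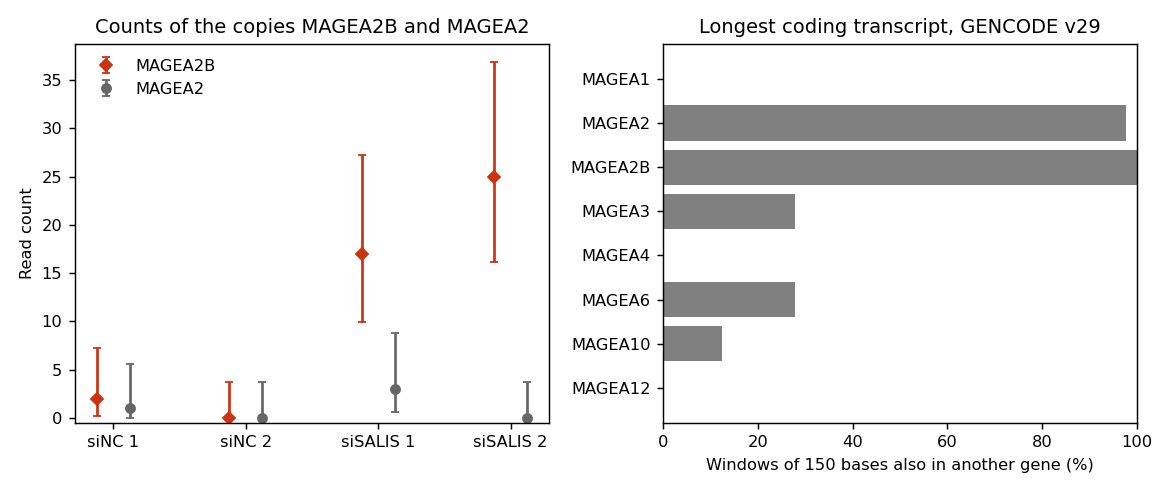
Left, read counts (y axis) of MAGEA2B (diamonds) and MAGEA2 (circles) in each library with exact 95% counting intervals. Right, percentage of 150-base windows of each member's longest coding transcript that also occur in a transcript of another gene (x axis), which is 100% for MAGEA2B, 97.8% for MAGEA2 and 0 for MAGEA1, MAGEA4 and MAGEA12.

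MAGEA1, the founding member of the family, had 1242 and 975 counts under siNC and 1171 and 1057 under siSALIS. In CPM it was 74.1 and 60.4 in siNC against 82.0 and 59.5 in siSALIS libraries, so the groups overlapped and each held a high library numbered 1 and a low library numbered 2. Its log2 fold change was 0.07 (95% interval -0.42 to 0.57, adjusted p = 1.00 by the quasi-likelihood test of edgeR). On the deposited TPM scale the sign was turned, with a log2 difference of the group means of -0.11. MIR6087, a microRNA gene of 49 bases, held 1.16% and 1.91% of all TPM in siNC libraries and 13.8% and 8.69% in siSALIS libraries. With its row left out, an alternative chosen after the values were seen, MAGEA1 stood at 95.2 and 79.1 TPM in siNC against 101 and 78.8 in siSALIS libraries, a log2 difference of 0.05.

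MAGEA6, whose product acts with TRIM28 on AMPK, had 845 and 679 counts under siNC and 700 and 729 under siSALIS. In CPM these were 50.4 and 42.1 against 49.0 and 41.0. The groups overlapped, and the log2 fold change was -0.04 (95% interval -0.49 to 0.41, adjusted p = 1.00, edgeR). As a ratio of siSALIS to siNC this interval ran from 0.712 to 1.33. Reads of MAGEA3 could be among those of MAGEA6, since the 2 share long stretches and the place given for MAGEA6 was not checked.

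MAGEA10 had 9 and 5 counts under siNC and 9 and 4 under siSALIS. Its groups overlapped and the log2 fold change was -0.02, but at this depth the 95% interval ran from -1.82 to 1.77 (adjusted p = 1.00, edgeR), which as a ratio of siSALIS to siNC is 0.284 to 3.42. MAGEA4 had 0 and 1 counts under siNC and 1 and 0 under siSALIS, under the floor of 3 counts, and no fold was computed.

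**Figure D3:**
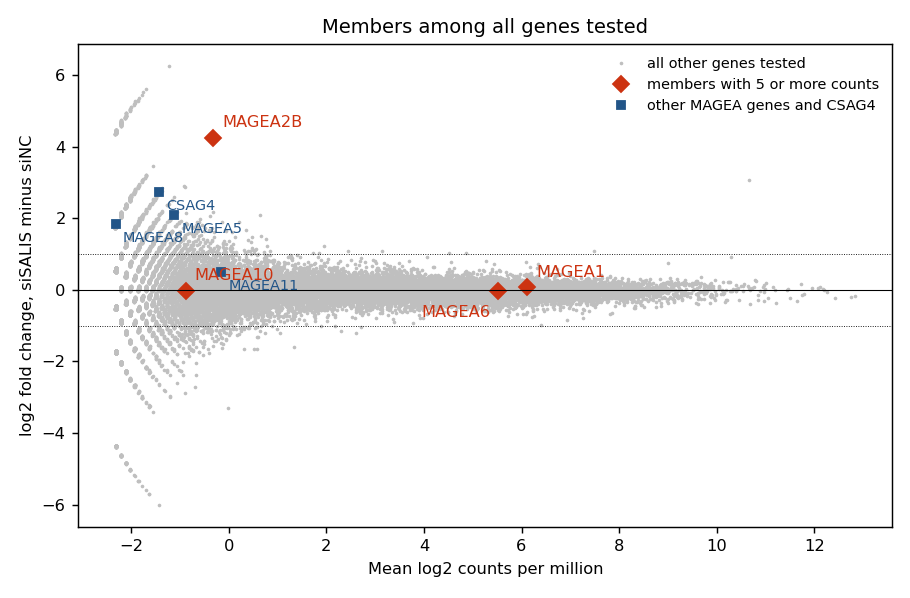
Log2 fold change of siSALIS minus siNC (y axis) against mean log2 CPM (x axis) for the 23942 genes tested (grey), the 4 members with at least 5 counts (diamonds) and other MAGEA genes and CSAG4 (squares), with dotted lines at -1 and 1. MAGEA1 and MAGEA6 sit close to 0 among well expressed genes, and MAGEA2B lies at 4.26 where counts are few.

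A comparison that did not enter the choice of the family is that between the replicate numbers, fitted with treatment as a covariate. Its p-values take the spread from the trend over all genes and not from the libraries of the gene itself. MAGEA1 was lower in the libraries numbered 2, with 60.4 and 59.5 CPM against 74.1 and 82.0 in those numbered 1. Its log2 fold change was -0.38 with a 95% interval of -0.62 to -0.14 (adjusted p = 0.0166 by the quasi-likelihood test of edgeR), and it was lower in both groups. MAGEA6 was also lower in both groups, at 42.1 and 41.0 against 50.4 and 49.0 CPM, but its log2 fold change of -0.26 did not pass (adjusted p = 0.183). MAGEA10 had a log2 fold change of -1.11 (adjusted p = 0.463) and MAGEA2B of -0.05 (adjusted p = 0.981) between the numbers. Over all genes 9.55% were lower and 7.96% higher in the libraries numbered 2 at an adjusted p under 0.05, and among the 4 members 1 was lower and 0 were higher. The call of MAGEA1 was lost without the term for treatment (adjusted p = 0.0750). What the numbers stand for is not in the labels. Liver markers moved with the same split. Of the list of 8, 6 were tested and 5 were higher in the libraries numbered 2 at an adjusted p under 0.05, and the summed list went from 4.90 to 15.3 CPM in siNC and from 6.16 to 14.6 in siSALIS libraries. Of the 3 fibroblast markers 2 passed, COL1A1 and PDGFRB, with log2 fold changes of 0.76 and 1.33. Their part in the difference of MAGEA1 was not tested.

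The other MAGEA genes were followed from a list of 7, of which 6 had a row. MAGEA5, which lies beside MAGEA10, had 0 and 4 counts in siNC and 6 and 12 in siSALIS libraries, and both siSALIS libraries stood above both siNC libraries. The log2 fold change was 2.11, with an SE of 1.10 and an adjusted p of 1.00 (edgeR, unadjusted p = 0.0879), and 18 against 4 reads gave a ratio of 4.62 with an exact counting interval of 1.52 to 18.8. It passed the limits when edgeR blocked on the replicate number (log2 fold change 2.21, unadjusted p = 0.0410) and with a filter of 1 count in any library (2.11, 0.0396). Both fits took the spread from the trend over all genes, and the fold was close to that of the main fit. Without siNC library 2, the library that held those 4 reads, the log2 fold change was 6.19. MAGEA5 had been picked by the study on these libraries, as MAGEA2B had, so its direction is no independent evidence. The readthrough gene MAGEA10-MAGEA5 overlaps both genes and had 0 and 4 against 6 and 10 counts, and how reads in the overlap were assigned is not given in the sources used here. MAGEA11 had 10 and 11 counts in siNC and 14 and 15 in siSALIS libraries, with a log2 fold change of 0.50 (adjusted p = 1.00, edgeR). Its siSALIS libraries also stood above both siNC libraries, an order found for 2 of the 3 tested genes of this list and for 13.6% of all genes tested. MAGEA8 had 1 and 0 against 3 and 1 counts. MAGEA9 and MAGEA7P were at 0 in all libraries, and MAGEA9B had 1 read in all. None of the 3 tested was past the limits, beside 0.464% higher and 0.292% lower over all genes tested. Their median log2 fold change was 1.84 beside 0.00453 over all genes tested, a median over genes of 5 to 50 reads.

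The genes around the members at Xq28 were compared with MAGEA2B. Of a list of 29, 18 had at least 5 counts, and their median log2 fold change was 0.07. Of these 18, 1 was past the limits as higher and 0 as lower, beside 0.464% and 0.292% of all genes tested. Both siSALIS libraries stood above both siNC libraries for 4 of the 18 and below for 1, beside 13.6% and 12.4% of all genes tested. The gene past the limits was CSAG4, a gene of the CSAG family whose copies lie between the MAGEA genes. It is annotated as a noncoding RNA 12.9 kb above MAGEA2B in hg19 (X, 151895976 to 151903136, minus strand). In GENCODE v29 it overlaps MAGEA12 on the same strand. The start windows of MAGEA12 lie on the plus strand in GRCh38, so this strand is not to be compared with the one given for hg19. CSAG4 had 1 and 1 counts in siNC libraries and 10 and 4 in siSALIS libraries, with a log2 fold change of 2.75, an SE of 1.13 and an adjusted p of 1.00 (edgeR, unadjusted p = 0.0387). The 14 against 2 reads gave a ratio of 7.18 with an exact counting interval of 1.65 to 65.1. CSAG4 left the limits without siNC library 1 (unadjusted p = 0.0949), siNC library 2 (0.0842) or siSALIS library 1 (0.241) in edgeR, when edgeR blocked on the replicate number (0.0504) and with DESeq2's Wald test (0.113). An antisense gene beside MAGEA2 that the tables list without a symbol, ENSG00000184324.11, had 6 and 0 counts in siNC and 4 and 10 in siSALIS libraries, with a log2 fold change of 1.21 (SE 1.15, adjusted p = 1.00, edgeR), and its groups overlapped. The nearest protein coding neighbours stayed within the limits. As placed by the deposited annotation, MAGEA6 lay 51.6 kb above MAGEA2B, and CETN2 and NSDHL lay 113 and 116 kb above it. Their log2 fold changes were -0.04, 0.27 and -0.05. GABRQ, at -76.4 kb, had 3 and 4 against 5 and 6 counts. Of the well expressed neighbours, GABRA3, GABRE, ZNF185, CD99L2, HMGB3, VMA21, MTMR1, MTM1, PASD1 and HAUS7 had log2 fold changes between -0.26 for GABRE and 0.31 for HAUS7. PASD1, itself a cancer-testis antigen, was at 0.08 with 698 to 952 counts. The low neighbours PRRG3, TREX2, PNMA6A and BGN ranged from -0.98 for PNMA6A to 1.48 for BGN, each with at most 12 counts per library.

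**Figure D4:**
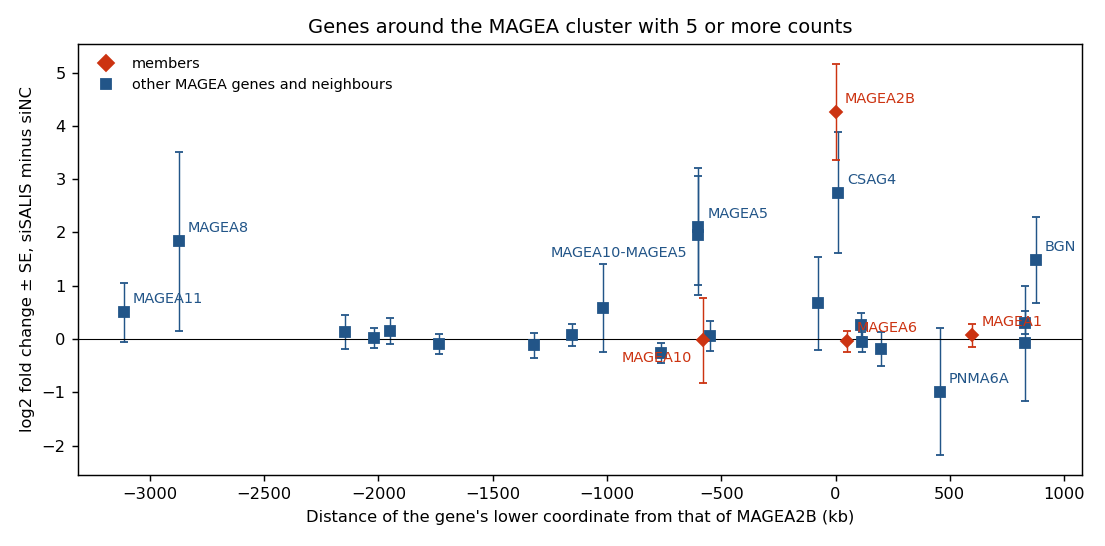
Log2 fold change of siSALIS minus siNC with its standard error (y axis) for members (diamonds) and other MAGEA genes and neighbours (squares) with at least 5 counts, against the distance in kb of each gene's lower coordinate from that of MAGEA2B in hg19 (x axis). MAGEA2B at 4.26 and CSAG4 at 2.75 stand next to MAGEA6 at -0.04, and the well expressed neighbours lie close to 0. Places are those of the deposited annotation, and that of MAGEA6 was not checked against another.

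No tested gene of the wider MAGE family was past the limits, beside 0.464% higher and 0.292% lower over all genes tested. At these shares, 0 calls among so few genes is no result about the family. Of 13 other type I MAGE genes, which lie elsewhere on the X chromosome, 5 had at least 5 counts and 0 were past the limits in either direction (median log2 fold change 0.54). The highest by level were MAGEB17, with 25 and 9 counts in siNC and 22 and 26 in siSALIS libraries, and MAGEB6, with 7 and 15 against 4 and 3. Both siSALIS libraries of MAGEB6 stood below both siNC libraries, as for 12.4% of all genes tested. Of the 5 tested genes, 1 had this order and 1 the opposite one. Of 11 type II MAGE genes, which are transcribed in many normal tissues, 6 were tested and 0 passed the limits (median -0.17). MAGED2, needed for salt uptake in the fetal kidney, had a mean of 65.6 TPM and MAGEF1, a partner of the ligase NSMCE1, 31.1 TPM, with log2 fold changes of 0.18 and -0.13.

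Of 20 listed ligase partners and targets of MAGE proteins, 20 were tested, with a median log2 fold change of 0.07. Past the limits were 0, beside 0.464% higher and 0.292% lower over all genes tested. TRIM28, the main ligase partner, had 434 and 281 TPM in siNC and 379 and 245 in siSALIS libraries, and its log2 fold change was -0.0038 by treatment (adjusted p = 1.00, edgeR). Like MAGEA1 it was lower in the libraries numbered 2, with a log2 fold change of -0.73 (adjusted p = 4.1e-12, edgeR's quasi-likelihood test). HDAC1, a deacetylase that works beside the TRIM28 complex, had a log2 fold change of 0.32.

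Regulators of DNA methylation and chromatin at germline genes, activators and demethylases among them, were tested as a list of 34, and 0 passed the limits (median 0.01). Over all genes tested 0.464% passed as higher and 0.292% as lower, so 0 calls in a list of this length is near the background. DNMT1, the maintenance DNA methyltransferase, had 121 and 105 TPM in siNC and 102 and 101 in siSALIS libraries, with a log2 fold change of 0.02. UHRF1, which brings DNMT1 to newly copied DNA, had a log2 fold change of -0.01. Of 50 other cancer-testis antigens 48 had a row, 24 were tested, 16 were at 0 in all libraries and 0 passed the limits (median 0.06). Among these, KIF2C and CEP55, both needed for cell division, had the highest levels at 82.6 and 76.0 TPM, and PRAME, a tumor antigen that resembles MAGEA1 in its silence in normal tissue, had 797 and 798 counts in siNC and 678 and 878 in siSALIS libraries. The mean of MAGEA1, 82.7 TPM, lay beside that of KIF2C.

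**Figure D5:**
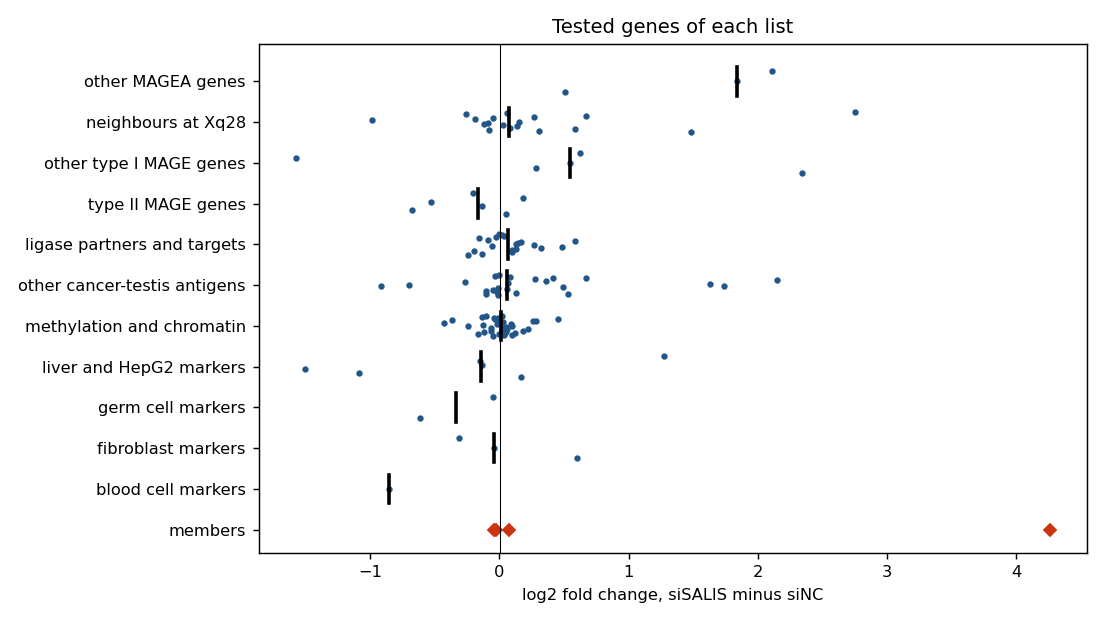
Log2 fold change of siSALIS minus siNC (x axis) of each tested gene (points) of the lists (rows), with a black bar at each list's median, a vertical line at the median of all genes tested (0.00453) and the 4 tested members as diamonds in the lowest row. MAGEA1, MAGEA6 and MAGEA10 lie close to 0 and MAGEA2B at 4.26, beyond every gene of the lists.

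Markers of other cells were compared by treatment as well, where 0.464% of all genes tested passed the limits as higher and 0.292% as lower. Of 6 liver, 2 germ cell, 3 fibroblast and 1 blood cell marker tested, 0 passed the limits, with medians of -0.14, -0.33, -0.05 and -0.86. HNF4A, a liver transcription factor, had 2.95 TPM and APOA1, an apolipoprotein, 0.994 TPM on average. SYCP3, of the meiotic chromosome axis, had 19 and 4 against 6 and 16 counts, and ACRV1, a sperm protein, 10 and 8 against 8 and 3, so neither was higher in both siSALIS libraries. COL1A1 and PDGFRB, genes of fibroblasts, had 12.2 and 4.93 TPM, and the summed fibroblast list was 42.8 to 71.0 CPM in siNC and 38.9 to 70.2 in siSALIS libraries. CD14, of monocytes, had 0.805 TPM, and PTPRC, the common leukocyte antigen, was at 0 except for 2 reads in siSALIS library 2. The summed blood cell list was 0.358 to 1.42 CPM in siNC and 0.280 to 0.788 in siSALIS libraries.

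The members' summed counts, 2099 and 1660 in siNC and 1901 and 1815 in siSALIS libraries, followed MAGEA1. They came to 125 and 103 CPM in siNC and 133 and 102 in siSALIS libraries. The 5 genes whose centred log2 CPM lay nearest to this profile over the 4 libraries were EBPL, FBL, RBM42, EXOSC2 and DHX15, at Euclidean distances of 0.00735 to 0.0167. As 364 of 23938 genes lay within 0.1 of it, a profile of this shape over 4 libraries was shared by many genes.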

How the data were processed

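RNA-seq of cells labelled HepG2 was deposited as 1 table per library, 2 libraries per group, with 17297245 and 15812803 counts in siNC and 14968958 and 16785571 in siSALIS libraries. The authors deposited raw read counts per gene and TPM, which equal count over length scaled to the same total in each library. Per the labels, hg19, HISAT2, TopHat2, Bowtie2 and HISAT were used, with no versions or roles. The counting program and its strand setting are not given in the sources used here. Groups came from the labels. From the deposited counts, genes with at least 5 counts over the 4 libraries were fitted with edgeR 4.0.16 (R 4.3.3; TMM, quasi-likelihood test, Benjamini-Hochberg over all genes tested), which was tested on simulated data first. DESeq2 1.42.0, other filters and scalings, a replicate block, leaving out each library and the deposited TPM (pseudocount 0.1) were alternatives. Libraries of a group differed beyond counting noise. Sequences came from RefSeq (GRCh38.p14) and GENCODE v29, and coding sequences were aligned with Biopython 1.88. Members and lists were chosen with earlier results of these data known. Named genes are the members, each list's genes past the limits and its 2 highest by TPM, neighbours with 5 counts, and the 5 nearest profiles. TTR, AFP, ALB, PRAME, MIR6087, MAGEA8, MAGEA9, MAGEA9B, MAGEA7P, MAGEA10-MAGEA5 and ENSG00000184324.11 were named after their values were seen. The 2 genes MAGEA3 and MAGEA6 could not be summed, since MAGEA3 was not analysed here.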

Additional observations from a re-analysis of the deposited data

How the results depend on the processing

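The members' directions rest on few libraries. Leaving out each library in turn moved the log2 fold change of MAGEA1 from -0.18 to 0.28, of MAGEA6 from -0.17 to 0.10 and of MAGEA10 from -0.89 to 0.55, and none passed the limits. That of MAGEA2B ranged from 3.37 (without siNC library 2) to 7.39 (without siNC library 1) and that of its sum with MAGEA2 from 2.92 to 7.50, and the upper values are no bound because the siNC side is then 0. Genes past the limits ranged from 81 to 282 higher and from 93 to 201 lower, against 111 and 70: without siSALIS library 1, 177 and 193, without siNC library 2, 282 higher, and without siNC library 1 or siSALIS library 2, 122 and 201 lower. DESeq2's Wald test gave 15 higher and 12 lower, and filterByExpr gave 32 and 14 and did not keep MAGEA10. With deposited TPM the log2 differences were -0.11 for MAGEA1, -0.21 for MAGEA6 and 3.01 for MAGEA2B, and without the MIR6087 row -0.061 for MAGEA6 and 3.16 for MAGEA2B. Between the replicate numbers, 4191 genes passed, 2754 with filterByExpr and 2158 without the treatment term. The labels do not say what libraries with the same number share, and the correlation over genes of same-numbered deviations was 0.32. With the replicate block 120 genes were higher and 100 lower, 278 genes had an adjusted p under 0.05 against 0, and the log2 fold changes were 0.06 for MAGEA1, -0.04 for MAGEA6 and 4.26 for MAGEA2B, and the block changed no call of a member. Among the neighbours it moved CSAG4 out of the limits and MAGEA5 into them, and filterByExpr kept neither. Depth limits MAGEA2, MAGEA4 and MAGEA10, and the cause of these shifts was not tested.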
